A study of Homo sapiens with 14 samples.

Results

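OVCAR-3, CAOV3 and SKOV3 are cell lines derived from human ovarian cancers, and each was treated for 72 h with GSK-J4 or with GSK-J5, the compound that the labels name as control. The comparison described here is the GSK-J4 effect in OVCAR-3, that is GSK-J4 over GSK-J5, minus the mean of the same effect in CAOV3 and SKOV3. It is called the line difference below and is a log2 value, positive where GSK-J4 moved a gene further up in OVCAR-3 than in the other lines. Every RNA-seq library of 72 h entered it, which is 18 of the 22 libraries of the series: 6 of OVCAR-3, 6 of CAOV3 and 6 of SKOV3, with 3 per compound in each line. The groups were OVCAR-3 with 2.5 µM GSK-J4 and OVCAR-3 with GSK-J5, followed by CAOV3 and SKOV3 treated in the same ways. The dose of GSK-J5 is labelled for replicate 3, where it is also 2.5 µM. Each line had its own basal medium, and no untreated library was analysed here. Replicates 1 and 2 of every group form a first library set. Their labels give stripped medium for the treatment. Replicate 3 is a second set, with another RNA kit, poly(A) selection and serum in its labels but no mention of stripped medium. Kit, selection, medium and set cannot be told apart. The labels do not state whether replicates came from separate cultures. The p-values therefore cover the variation among these libraries, which may be technical. With 3 lines, a difference between lines is a difference between those cultures.

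GSK-J4 enters cells and inhibits KDM6A (UTX) and KDM6B (JMJD3), the demethylases that take methyl groups off lysine 27 of histone H3. Trimethylated lysine 27 is written by the polycomb repressive complex PRC2 and is found at genes held silent, among them HOX genes and other lineage regulators. The integrated stress response, in which ATF4 raises genes of amino acid supply, is a separate response that many compounds trigger in cultured cells.

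Most listed ribosomal protein genes (31 of 34) had a higher GSK-J4 effect in OVCAR-3 than in CAOV3 and SKOV3. So had most listed NRF2 targets (20 of 23) and aminoacyl-tRNA synthetases (18 of 20). Most listed genes of DNA replication and G1/S (26 of 39) had a lower effect. NGFR, MT2A, GDF15 and ATF3 were among the single genes with a higher effect. RRM2, UHRF1 and the helicase genes MCM3 and MCM6 were among those with a lower one. The sizes came mainly from replicates 1 and 2. Of 19274 genes tested, 5567 had a line difference at an adjusted p below 0.05 and are named called genes here (28.9%). Of these, 3167 were higher in OVCAR-3 (16.4%) and 2400 lower (12.5%). With libraries scaled by their totals alone the split was 1594 higher and 4334 lower, and the median over all genes moved by -0.359. The directions given below are relative to trimmed-mean scaling.

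For nearly all called genes the change was measured in OVCAR-3. In the joint fit of the 18 libraries the OVCAR-3 effect itself was called for 5402 of the 5567 genes. None of these could have a called effect in CAOV3 or SKOV3, since that fit called 0 genes in either line. Among called genes the median size of the effect was 1.06 log2 units in OVCAR-3, against 0.16 in CAOV3 and 0.07 in SKOV3. Over all genes in that fit, GSK-J4 changed 7776 genes in OVCAR-3 (40.3%). It changed 0 genes in CAOV3 (0%) and 0 in SKOV3 (0%) by edgeR's test, with 1598 and 416 at an unadjusted p below 0.05, and 0 genes differed between CAOV3 and SKOV3 (1030 unadjusted). These counts share 1 estimate of spread. In a separate edgeR fit of each line, 5 genes were called in OVCAR-3 (0.0313%), 52 in CAOV3 (0.318%) and 7 in SKOV3 (0.0435%), with 7075, 2745 and 573 at an unadjusted p below 0.05. The many OVCAR-3 calls of the joint fit were thus not reached in its separate fit. The joint fit pools the spread over the lines, and each separate fit has fewer libraries and its own gene filter. Which of these lowers the OVCAR-3 calls was not tested. On replicates 1 and 2 alone, GSK-J4 changed 10251 genes in OVCAR-3 (51.8%), 1814 in CAOV3 (9.16%) and 16 in SKOV3 (0.0808%). Taken against each line singly, 4030 genes differed between OVCAR-3 and CAOV3 (20.9%) and 4351 between OVCAR-3 and SKOV3 (22.6%), and 2986 of the 5567 were called against both with the same sign. The genes at issue were mostly active everywhere: 5184 of the 5567 reached a mean of 1 CPM in all 3 lines. CPM here is counts scaled to library size and trimmed means. Another 37 of the 5567 reached that level in OVCAR-3 only. Of all 19274 genes tested, 12126 reached it in all 3 lines. Whether the level of a gene bears on its being called was not tested.

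**Figure D1:**
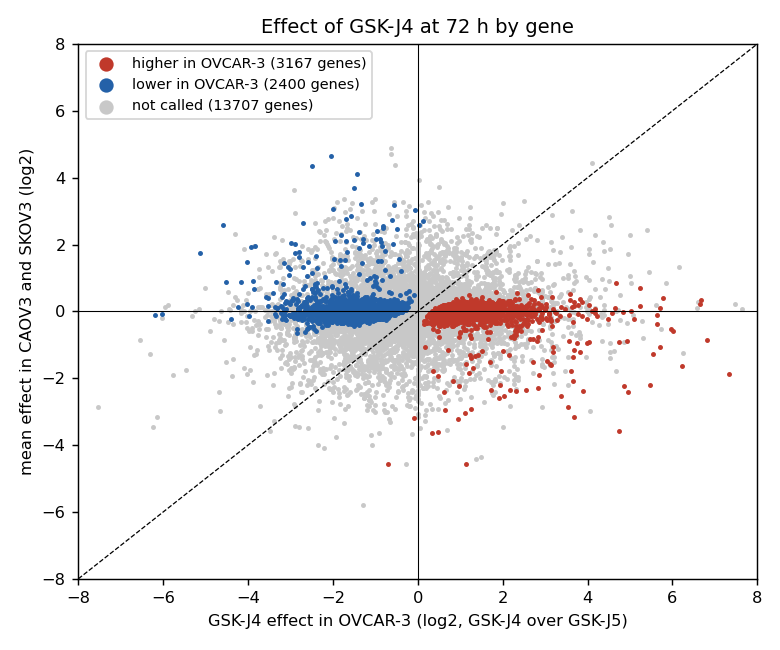
Each point is a gene, with its fitted GSK-J4 effect in OVCAR-3 on the x axis and the mean effect in CAOV3 and SKOV3 on the y axis, both log2; colours mark the 3167 genes higher and the 2400 lower in OVCAR-3, grey the rest, and 1 gene lies outside the axes of ±8. The coloured points spread along the x axis and stay near 0 on the y axis, except for a scatter of low-count genes.

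Some libraries stood apart before any comparison was made. Total counts ran from 24037007 to 37990707 per library, which puts the floor of 3 counts at 0.079 to 0.125 CPM before scaling factors are applied. The GSK-J4 libraries of OVCAR-3 held at least 10 counts for 14714, 14680 and 16231 genes in replicates 1, 2 and 3, against 16444 to 16504 genes in the GSK-J5 libraries. Their scaling factors were 0.765, 0.747 and 0.971, against 1.054 to 1.096 with GSK-J5 and 0.989 to 1.062 over the other lines. A floor of 3 counts is higher in scaled CPM where the factor is below 1, as in these GSK-J4 libraries. Mitochondrial ribosomal RNA made up 0.257 to 0.381% of counts with GSK-J4 in OVCAR-3, against 0.0322 to 0.0961% with GSK-J5. In CAOV3 and SKOV3 that share was 0.175 to 0.333% with either compound. Its part in the line difference was not tested. In SKOV3, replicate 3 differed from replicates 1 and 2 under both compounds: ERBB2, the amplified receptor gene of this line, was at 2450 CPM against 11380 and 12540 CPM with GSK-J4, and at 2454 against 11710 and 14640 CPM with GSK-J5. Without both SKOV3 libraries of the second set the counts were 2756 higher and 1700 lower.

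The OVCAR-3 difference was large in the first library set and small in the second. Among called genes, the median size of the difference was 1.34 in replicate 1, 1.43 in replicate 2 and 0.33 in replicate 3. The sign was the same in all 3 for 4789 of the 5567. The calls used these same replicates, which favours a shared sign, and the share over all genes was not counted. On replicates 1 and 2 alone, 8790 of 19804 genes were called (44.4%), 4238 higher and 4552 lower. Of the genes called there and tested in both fits, 79.5% of the higher ones (3370 of 4237) were also above 0 in replicate 3, with a median of 0.28. Of the lower ones, 52.7% (2397 of 4546) were below 0 in replicate 3, with a median of -0.03. Over all tested genes 59.9% were above 0 in that replicate. The calls of the fit with all replicates were nearly all contained in those of replicates 1 and 2: 5424 genes were called in both with the same sign, 97.4% of the calls with all replicates and 61.7% of those with replicates 1 and 2. Leaving out replicate 1 or replicate 2 of every line left 0 called genes by edgeR, with 2224 and 2206 at an unadjusted p below 0.05. Without 1 first-set OVCAR-3 library at a time, the calls numbered 2370 higher and 590 lower (GSK-J4 replicate 1), 2235 and 596 (GSK-J4 replicate 2), 2058 and 1062 (GSK-J5 replicate 1) or 1955 and 1062 (GSK-J5 replicate 2). Without OVCAR-3 GSK-J4 or GSK-J5 replicate 3 they numbered 4322 and 4734 or 4324 and 4730. Under each of these first-set omissions the count stayed at 31 higher for ribosomal protein genes, 20 for NRF2 targets and 8 for heat shock genes. List medians by replicate are given for most groups.

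No line difference was called for the transcripts of the compound's targets. KDM6A, on the X chromosome (GRCh38 44873177 to 45112602), was at 24, 21.9 and 29.6 CPM with GSK-J4 in OVCAR-3, against 24.9, 25.9 and 24.4 CPM with GSK-J5. It was at 18.8 to 19.8 against 21.5 to 25.4 CPM in CAOV3 and at 34.5 to 40.6 against 32.5 to 41.7 CPM in SKOV3. Its line difference was 0.12 (SE 0.16, 95% interval -0.22 to 0.46, adjusted p = 0.645), and it was negative with unscaled totals or without a replicate 3 library of OVCAR-3. KDM6B was at 107, 122 and 139 CPM with GSK-J4, against 106, 109 and 110 CPM with GSK-J5 in OVCAR-3. In CAOV3 it was at 24.9, 39.0 and 50.8 CPM against 47.3 to 55.1 CPM, and in SKOV3 at 27.1 to 58.7 against 32.4 to 45.5 CPM. The line difference of KDM6B was 0.39 (SE 0.21, interval -0.06 to 0.85, adjusted p = 0.183). Transcript levels say nothing of enzyme activity, which was not measured.

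Of 13 tested genes for KDM6 enzymes and PRC2, 6 were lower in OVCAR-3 (46.2%) and 1 was higher (7.69%). Over all genes 12.5% were lower and 16.4% higher. The list median was -0.16, against -0.05 over all genes. Without any 1 first-set OVCAR-3 library 1 was lower, and the replicate medians were -0.34, -0.43 and 0.00. EED, the PRC2 subunit that binds the methylated lysine, was at 8.66, 7.63 and 14.0 CPM with GSK-J4, against 18.9, 18.1 and 15.0 CPM with GSK-J5 in OVCAR-3, and its difference was -0.86 (SE 0.25, adjusted p = 0.0207). JARID2, MTF2, PHF19, RBBP4 and RBBP7, all partners of that complex, differed by -0.61 to -0.84. PHF1, a PRC2 accessory factor, went the other way at 67.6, 68.0 and 34.1 CPM with GSK-J4, against 29, 26.1 and 18.4 CPM with GSK-J5 (difference 0.93, SE 0.15, adjusted p = 0.00158), with no overlap between the groups. Of the 36 HOX genes tested, 2 were higher (5.56%) and 5 lower (13.9%), near or under the 16.4% and 12.5% over all genes. Without 1 first-set OVCAR-3 library 0 or 1 was lower. HOXB9 was at 9.63, 11.8 and 4.58 CPM with GSK-J4, against 1.52, 1.75 and 4.62 CPM with GSK-J5 in OVCAR-3, so replicate 3 showed no difference; the line difference was 1.81 (adjusted p = 0.0102). HOXC13 differed by 2.73 (adjusted p = 0.0312), and SKOV3 had 3 counts under each compound. HOXA3, HOXB3, HOXB4, HOXB13 and HOXD9 differed by -0.92 to -1.62.

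Several of the groups below are known targets of well-studied transcription factors. Metal response elements bind MTF1, which zinc activates; heat shock elements bind HSF1; antioxidant response elements bind NRF2; the ATF4 element serves the amino acid response; E2F sites drive genes of DNA replication. The windows below run from 250 bases before to 50 bases after the RefSeq start of a gene (GRCh38.p14) and are shown for genes that moved and hold a match, chosen after their values were seen. Capitals mark the motif, on either strand.
MT2A, chr16:56608334-56608633, plus strand, metal response element: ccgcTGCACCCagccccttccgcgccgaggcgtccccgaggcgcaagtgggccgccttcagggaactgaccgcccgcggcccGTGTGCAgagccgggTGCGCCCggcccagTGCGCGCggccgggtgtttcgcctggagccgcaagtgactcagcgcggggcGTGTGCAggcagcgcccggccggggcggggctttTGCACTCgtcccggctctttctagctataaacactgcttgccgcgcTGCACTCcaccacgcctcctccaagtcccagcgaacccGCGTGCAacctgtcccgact
MT1X, chr16:56682220-56682519, plus strand, metal response element: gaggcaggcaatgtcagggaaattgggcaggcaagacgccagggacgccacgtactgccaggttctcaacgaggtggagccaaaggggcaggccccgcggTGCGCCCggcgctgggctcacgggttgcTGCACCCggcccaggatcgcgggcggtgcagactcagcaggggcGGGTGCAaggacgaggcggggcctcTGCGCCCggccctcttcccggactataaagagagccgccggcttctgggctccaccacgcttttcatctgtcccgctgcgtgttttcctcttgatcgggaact
HSPA6, chr1:161524290-161524589, plus strand, heat shock element: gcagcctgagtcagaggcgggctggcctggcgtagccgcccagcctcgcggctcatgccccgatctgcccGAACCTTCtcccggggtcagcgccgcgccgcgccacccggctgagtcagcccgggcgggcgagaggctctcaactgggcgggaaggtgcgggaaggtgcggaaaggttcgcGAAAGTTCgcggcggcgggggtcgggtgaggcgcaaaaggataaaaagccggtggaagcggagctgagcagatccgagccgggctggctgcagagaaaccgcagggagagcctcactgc
TXNRD1, chr12:104215529-104215828, plus strand, antioxidant response element: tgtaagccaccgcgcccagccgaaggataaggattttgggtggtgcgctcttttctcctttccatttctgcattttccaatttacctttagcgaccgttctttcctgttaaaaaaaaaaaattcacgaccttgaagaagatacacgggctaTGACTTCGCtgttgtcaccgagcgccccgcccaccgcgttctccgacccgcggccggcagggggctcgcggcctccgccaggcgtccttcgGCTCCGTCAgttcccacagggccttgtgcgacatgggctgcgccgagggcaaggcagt
AARS1, chr16:70289457-70289756, minus strand, ATF4 element: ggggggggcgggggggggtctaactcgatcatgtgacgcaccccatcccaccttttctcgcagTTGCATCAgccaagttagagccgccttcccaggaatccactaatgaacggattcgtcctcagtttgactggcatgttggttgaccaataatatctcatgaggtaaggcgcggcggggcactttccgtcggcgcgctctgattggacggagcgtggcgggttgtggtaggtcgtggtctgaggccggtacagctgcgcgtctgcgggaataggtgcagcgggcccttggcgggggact
MCM6, chr2:135876394-135876693, minus strand, E2F site: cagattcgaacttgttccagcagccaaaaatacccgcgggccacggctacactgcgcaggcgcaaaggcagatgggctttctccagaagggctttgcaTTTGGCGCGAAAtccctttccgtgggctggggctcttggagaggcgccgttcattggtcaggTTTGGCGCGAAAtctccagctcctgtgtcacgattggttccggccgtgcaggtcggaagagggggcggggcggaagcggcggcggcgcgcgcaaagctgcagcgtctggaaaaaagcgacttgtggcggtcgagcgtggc

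The metal response element was searched as TGCACNC or TGCGCNC, and MT2A held 8 matches and MT1X 4. Of 35116 promoter windows of the table, 29.6% held at least 1. The zinc exporter gene SLC30A1 held 2. The ATF4 element (TGATGCAA) was in 6 of the 16 aminoacyl-tRNA synthetase promoters in the table (37.5%), against 0.866% of all windows, and in 2 of the 27 promoters of the ATF4 list (7.41%). An E2F site (TTTCGCGC or TTTGGCGC) was in 12 of 34 promoters of DNA replication genes (35.3%), against 1.15% of all windows; MCM6 held 4 matches, which overlap in pairs. The antioxidant response element (TGACNNNGC) was in 4 of 17 promoters of NRF2 targets (23.5%), against 13.3% of all. The heat shock element (GAANNTTC) was in 7 of 15 heat shock promoters (46.7%), against 6.77% of all, but in 1 of the 7 of these whose gene was called. A match is a run of letters, and binding was not measured.

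A few zinc and metal genes gave some of the largest differences. MT2A, a metallothionein gene whose small protein holds zinc and copper, was at 2088, 2344 and 314 CPM with GSK-J4 in OVCAR-3, against 27.7, 25.1 and 14.3 CPM with GSK-J5. The groups did not overlap, and replicate 3 was the lowest of the treated libraries. In CAOV3 the gene was high under both compounds, at 2091 to 3692 against 2041 to 3496 CPM, and in SKOV3 it was at 334 to 730 against 246 to 291 CPM. The line difference was 5.38 (SE 0.38, 95% interval 4.57 to 6.20, adjusted p = 6.64e-06), and it was 5.71 against CAOV3 and 5.05 against SKOV3. MT1X, also a metallothionein, was at 41.7, 28.8 and 1.92 CPM with GSK-J4, against 0.312, 0.491 and 1.13 CPM with GSK-J5, so the difference of 3.82 (SE 1.17, adjusted p = 0.0253) rested on replicates 1 and 2. SLC30A1, which moves zinc out of the cell, differed by 2.81. Of 11 tested members of this list, 3 were higher (27.3%, against 16.4% over all genes) and 0 lower. Without 1 first-set OVCAR-3 library 2 were higher. The replicate medians were 2.62, 3.63 and -0.02. For 5 members at least 1 group had no counts, and the list median was 2.81 as fitted and 1.90 with those members at a floor of 3 counts over the group. SLC30A2, a zinc transporter of vesicles and the highest gene on replicates 1 and 2, was at 48.1, 54.5 and 11.2 CPM with GSK-J4, against 0.797, 0.702 and 3.25 CPM with GSK-J5. It had 0 and 2 counts in SKOV3, and its line difference was not called with all replicates (adjusted p = 0.0585).

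Genes of the integrated stress response differed strongly in the first library set, and their median lay below 0 in the second. GDF15, a secreted cytokine of cell stress on chromosome 19 (18374731 to 18389176), was at 300, 331 and 112 CPM with GSK-J4, against 1.91, 1.58 and 36.3 CPM with GSK-J5. Replicate 3 of GSK-J5 was thus well above the other GSK-J5 libraries. In CAOV3 it was at 15.3 to 25.2 against 18.9 to 25.9 CPM, and in SKOV3 at 78.9, 72.8 and 330 against 68.4, 62.1 and 265 CPM. The line difference was 5.60 (SE 1.09, interval 3.27 to 7.93, adjusted p = 0.00332) and 7.46 on replicates 1 and 2. ATF3, a stress-induced transcription factor, was at 614, 653 and 144 CPM with GSK-J4, against 9.67, 9.65 and 36 CPM with GSK-J5 in OVCAR-3, and differed by 4.85 (SE 0.77, adjusted p = 0.00141). CAOV3 held 1.92 to 2.27 against 1.25 to 3.38 CPM.

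Of 35 tested genes of the ATF4 and amino acid response, 10 were higher (28.6%) and 4 lower (11.4%), against 16.4% and 12.5% over all genes. The other 21 were not called, and the list median was 0.48. The medians by replicate were 1.19, 1.18 and -0.47, and 27 of the 35 were called lower in the test of the second set minus the first. TRIB3, a pseudokinase that restrains AKT, differed by 3.59, the amino acid carrier subunit SLC3A2 by 2.94, the pro-death factor DDIT3 (CHOP) by 2.37 and ATF4 itself by 0.96. SLC7A11, the cystine carrier that pairs with SLC3A2, went down at -1.23, with PSPH, CBS and CHAC1 at -0.94 to -1.19. Replicates 1 and 2 alone gave 25 higher and 5 lower. With unscaled totals the list had 6 higher and 7 lower members and a median of 0.09, against -0.41 over all genes. Without 1 first-set OVCAR-3 library 4 to 6 were higher.

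Aminoacyl-tRNA synthetases, which load amino acids onto tRNAs, were more uniform, with 18 of 20 higher, 0 lower and a median of 0.86. SARS1 was at 815, 823 and 294 CPM with GSK-J4, against 144, 134 and 283 CPM with GSK-J5 in OVCAR-3. The compounds were far apart in the first set and close in replicate 3. CAOV3 stood at 226 to 256 against 214 to 236 CPM, and SKOV3 at 576 to 749 against 575 to 727 CPM (difference 1.69, SE 0.42, adjusted p = 0.0102). YARS1 showed the same order, at 606, 662 and 214 CPM against 126, 121 and 213 CPM, with a difference of 1.62. The list's medians by replicate were 1.20, 1.32 and 0.11. Its 18 calls became 13 without 1 first-set GSK-J4 library of OVCAR-3 and 8 without 1 of GSK-J5. AARS1, whose promoter is printed above, differed by 1.27.

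ER chaperones and genes of the unfolded protein response had 12 of 24 higher, 0 lower and a median of 0.51 (replicate medians 0.76, 0.59 and 0.30). ERN1 (IRE1), the ER stress sensor kinase, was at 103, 119 and 59.5 CPM with GSK-J4, against 11.1, 12.8 and 31.6 CPM with GSK-J5 in OVCAR-3. All treated libraries were above all control libraries, and the difference was 2.69 (SE 0.42, adjusted p = 0.00132). CAOV3 had 6.66 to 8.18 against 7.28 to 10.5 CPM, and SKOV3 26.9 to 45.1 against 31.9 to 43.2 CPM. HERPUD1, a component of ER-associated degradation, differed by 1.37 (adjusted p = 0.0118), the chaperone HSPA5 (BiP) by 1.17 and XBP1 by 0.79. With unscaled totals the list had 8 higher and 3 lower members.

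Of 16 heat shock genes, 8 were higher and 0 lower, with a median of 0.63. HSPA6, an inducible HSP70 that is near silent without stress, was at 30.9, 29.3 and 1.19 CPM with GSK-J4, against 0.312, 0.210 and 0.106 CPM with GSK-J5 in OVCAR-3. It had 2 counts with GSK-J4 against 33 with GSK-J5 in CAOV3, and 9 against 7 in SKOV3, so part of the fitted line difference of 7.87 (SE 1.13, adjusted p = 0.00104) rested on a few reads in those lines. The OVCAR-3 effect alone was 6.23. On replicates 1 and 2 alone the line difference of HSPA6 was 7.11, with an SE too large for a call (adjusted p = 0.9998). DNAJB1, the co-chaperone that serves HSP70, was at 593, 530 and 221 CPM with GSK-J4, against 141, 135 and 131 CPM with GSK-J5, and differed by 1.53 (SE 0.24, adjusted p = 0.00147). HSPH1, HSPD1, HSF1 and BAG3 differed by 0.86 to 1.10.

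NRF2 targets, the antioxidant and detoxifying genes, were among the most uniform groups: 20 of 23 were higher, 1 (SLC7A11) was lower and the median was 1.21. The replicate medians were 1.21, 1.54 and 0.72. OSGIN1, a stress-induced growth inhibitor, was at 68.2, 86.6 and 23.1 CPM with GSK-J4, against 6.34, 5.23 and 7.59 CPM with GSK-J5 in OVCAR-3. It was at 2.65 to 5.78 against 5.66 to 6.32 CPM in CAOV3 and at 21.9 to 72.8 against 22.4 to 64.2 CPM in SKOV3. The difference was 3.31 (SE 0.46, adjusted p = 0.000863), with no overlap in OVCAR-3. The aldo-keto reductases AKR1C1, AKR1C2 and AKR1C3, near-identical genes whose reads may be shared, differed by 1.94, 3.19 and 1.73. GCLC and GCLM, the subunits of the enzyme that starts glutathione synthesis, differed by 2.56 and 1.09, TXNRD1 by 1.74, ME1 by 1.41 and NQO1 by 1.04. ABCC2, the largest fitted value of the list, had 24 counts in all GSK-J4 libraries of OVCAR-3, against 11 with GSK-J5, and 0 against 14 in CAOV3, and is given as counts for that reason.

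Genes of NF-kB signalling had 10 of 17 higher, 1 lower and a median of 1.82 (1.77 with 2 members at the floor), with replicate medians of 2.07, 2.29 and 0.79. IL6 was at 1.45, 2.32 and 0.534 CPM with GSK-J4, against 0.0693, 0.0351 and 0 CPM with GSK-J5 in OVCAR-3, a total of 88 against 3 counts. In CAOV3 it was present under both compounds, at 7.13 to 12.8 against 5.97 to 9.52 CPM (difference 4.54, SE 0.60, adjusted p = 0.000735). CXCL3, a neutrophil chemokine, was at 14.2, 11.9 and 4.24 CPM against 0.555, 0.456 and 0.882 CPM, with a difference of 3.59 (adjusted p = 0.0117). CXCL8, BIRC3, RELB, TNFAIP3 and NFKBIA differed by 1.77 to 3.40, and SOD2 by -0.78.

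Autophagy and lysosome genes had 13 of 22 higher and 1 lower, with a median of 0.59 and replicate medians of 0.81, 0.91 and 0.25. TFEB, the regulator of lysosome genes, was at 33.7, 31.2 and 12.8 CPM with GSK-J4, against 4.99, 5.05 and 3.99 CPM with GSK-J5 in OVCAR-3. In CAOV3 it was at 21.1 to 34 against 27.2 to 28.8 CPM, and in SKOV3 at 31.7 to 43.9 against 35.3 to 50.6 CPM. The difference was 2.49 (SE 0.24, 95% interval 1.98 to 2.99, adjusted p = 0.000100). LAMP3, a lysosomal membrane protein, was at 152, 176 and 62.1 CPM against 3.05, 3.51 and 33.6 CPM, and differed by 4.23 (SE 0.88, adjusted p = 0.00442). SQSTM1 (p62) and WIPI1 differed by 1.68 and 1.67. With unscaled totals the list had 5 higher and 4 lower members.

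**Figure D2:**
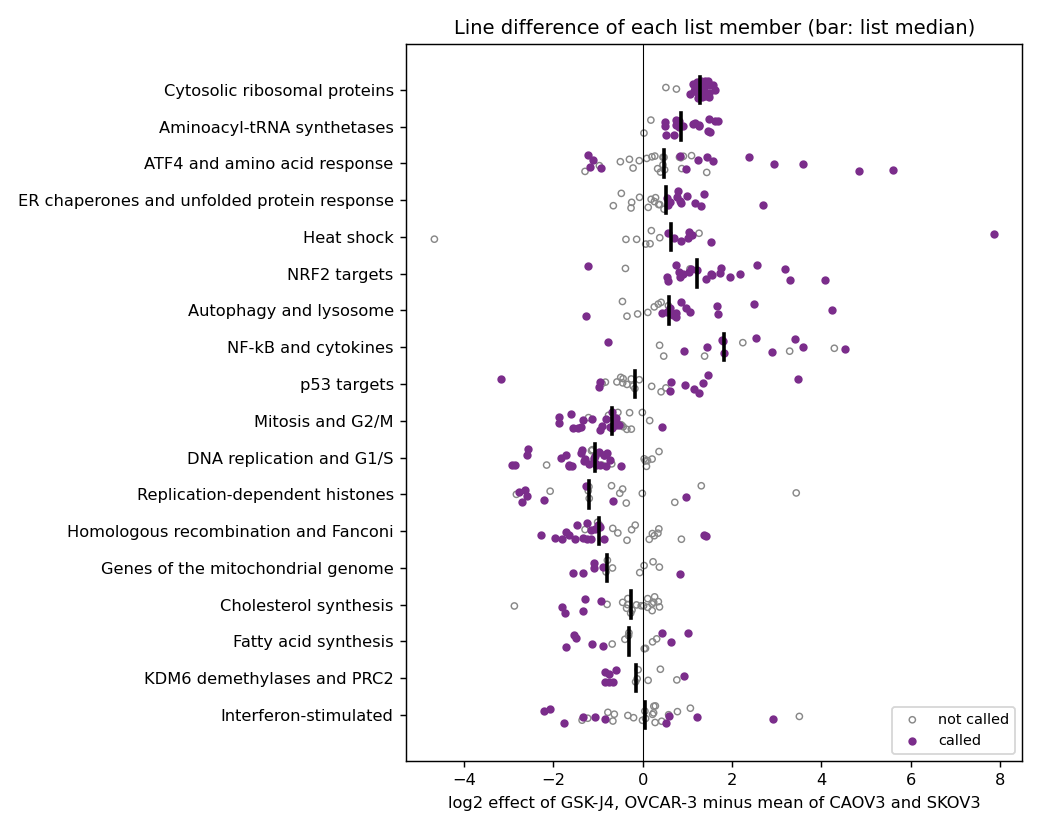
Each point is a tested gene of a list, placed by its line difference in log2 units; filled points are called, open ones are not, and the black bar is the list median. Ribosomal protein genes lie between 0.52 and 1.62, whereas the ATF4 list runs from -1.29 to 5.60.

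DNA replication and cell division genes were lower in OVCAR-3. Of 39 tested genes of replication and the G1/S transition, 26 were lower (66.7%, against 12.5% over all genes), 0 higher and the median was -1.08. RRM2, the regulated subunit of ribonucleotide reductase on chromosome 2 (10120698 to 10131419), was at 18, 17.4 and 147 CPM with GSK-J4, against 263, 263 and 126 CPM with GSK-J5 in OVCAR-3. The compounds were widely apart in the first set, and in replicate 3 GSK-J4 was the higher. CAOV3 had 236 to 321 against 237 to 260 CPM and SKOV3 27.6 to 54.1 against 15.6 to 68.1 CPM. The difference was -2.87 (SE 0.74, interval -4.46 to -1.28, adjusted p = 0.0119). UHRF1, which helps copy DNA methylation at replication, was at 2.90, 1.79 and 23.1 CPM with GSK-J4, against 59.6, 51.9 and 23.6 CPM with GSK-J5, and differed by -2.92 (SE 0.80, adjusted p = 0.0160). Of the helicase genes, MCM6 differed by -1.65, MCM3 by -1.38, MCM5 by -1.06, MCM2 by -0.96 and MCM4 by -0.88. The helicase gene MCM7 differed by 0.03 and was not called. The sliding clamp gene PCNA differed by -1.36, the polymerase subunit gene POLA2 by -2.56, the thymidylate supply gene TK1 by -1.66 and the cyclin gene CCNE1 by -1.10. Without 1 first-set OVCAR-3 library the 26 became 8 (GSK-J4) or 15 (GSK-J5). By replicate the list medians were -1.58, -1.59 and -0.01, and the test of the difference between sets was called for 31 of the 39.

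Mitotic genes had 19 of 31 lower (61.3%, against 12.5% over all genes), 1 higher and a median of -0.70 (replicate medians -0.99, -0.91 and -0.17). The 19 became 9 or 11 without 1 first-set GSK-J4 library of OVCAR-3, and 13 or 16 without 1 of GSK-J5. AURKB, the kinase of the chromosomal passenger complex, was at 8.87, 11.6 and 19.5 CPM with GSK-J4, against 42.7, 38.4 and 33.6 CPM with GSK-J5 in OVCAR-3. The groups did not overlap, and the difference was -1.88 (SE 0.28, adjusted p = 0.00117). CAOV3 had 56.7 to 74.8 against 51.2 to 56.2 CPM, and SKOV3 16.1 to 18.3 against 10.2 to 20.1 CPM. ASPM, a spindle pole protein, differed by -1.87 (SE 0.51, adjusted p = 0.0152); in CAOV3 it was at 20.8 to 55.1 CPM with GSK-J4, against 47.3 to 64.8 CPM with GSK-J5. The proliferation marker MKI67 differed by -1.56, TOP2A by -0.96 and CDK1 by -0.82, and CDC20 was the higher member at 0.42.

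Genes of homologous recombination and the Fanconi pathway repair broken and crosslinked DNA. Among 32 of them, 16 were lower (50%), 2 higher (6.25%) and the median was -0.99. Over all genes 12.5% were lower and 16.4% higher. FANCB, a Fanconi core complex subunit, was at 0.699, 0.737 and 1.82 CPM with GSK-J4, against 3.47, 4.42 and 3.35 CPM with GSK-J5 in OVCAR-3. Its groups did not overlap, and the difference was -2.28 (SE 0.49, adjusted p = 0.00514). FANCL differed by -1.96 (adjusted p = 0.0204), BRCA1 by -1.72, FANCD2 by -1.48 and BRCA2 by -1.01, while FANCE and RBBP8 (CtIP) were higher at 1.37 and 1.42. The replicate medians were -1.56, -1.18 and 0.06, and the 16 lower became 4 without 1 first-set GSK-J4 library of OVCAR-3 and 5 without 1 of GSK-J5. Replication-dependent histone genes had 7 of 21 lower (33.3%) and 1 higher (4.76%), with 1 or 3 lower under the same omissions. H2AC11 was at 1.45, 0.684 and 11 CPM with GSK-J4, against 15.2, 20.0 and 17.4 CPM with GSK-J5, and differed by -2.70 (SE 0.68, adjusted p = 0.0106). H2AC13 differed by -2.76 (adjusted p = 0.0389). Most histone messages carry no poly(A) tail, and the sets differ in poly(A) selection by their labels.

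Genes of cell death and of the p53 pathway were mixed. GADD45A, a growth-arrest gene that responds to DNA damage and to ATF4, was at 685, 607 and 119 CPM with GSK-J4, against 28.7, 24.6 and 44.0 CPM with GSK-J5 in OVCAR-3, and differed by 3.48 (SE 0.56, adjusted p = 0.00150). In the other lines it was at 23.7 to 47.8 against 21.0 to 45.3 CPM in CAOV3 and at 72.8 to 259 against 71.8 to 230 CPM in SKOV3. TP53INP1, a p53-induced stress protein, was at 12.3, 6.47 and 138 CPM with GSK-J4, against 202, 231 and 164 CPM with GSK-J5, and differed by -3.18 (SE 0.79, adjusted p = 0.0104). CDKN1A (p21) differed by 0.62 and MDM2 by -0.99. Over the 25 tested p53 targets, 8 were higher (32%) and 3 lower (12%), against 16.4% and 12.5% over all genes. Their median was -0.18, and 4 to 7 were higher without 1 first-set OVCAR-3 library. Of 15 BCL2 family genes, 6 were higher (40%) and 3 lower (20%), which became 4 or 5 and 1 or 2 under those omissions. The death-promoting BIK, BBC3 (PUMA) and PMAIP1 (NOXA) differed by 1.64, 1.26 and 0.95, and the survival genes BCL2 and MCL1 by -1.87 and -0.86, whereas BCL2L1 differed by 0.71.

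Of 34 listed ribosomal protein genes, 31 were higher in OVCAR-3 (91.2%, against 16.4% over all genes) and 0 lower, with a median of 1.29. The list was chosen with earlier results of these data known, and ribosomal protein genes outside it were not summarised. RPS18 was at 4873, 4237 and 2499 CPM with GSK-J4, against 988, 922 and 1489 CPM with GSK-J5 in OVCAR-3. The groups did not overlap. CAOV3 had 1231 to 2045 against 1147 to 1459 CPM and SKOV3 724 to 1168 against 732 to 1212 CPM, and the difference was 1.62 (SE 0.27, adjusted p = 0.00171). RPL11 was at 1959, 1403 and 566 CPM against 416, 413 and 337 CPM, and differed by 1.56 (SE 0.25, adjusted p = 0.00139). The replicate medians of the list were 1.61, 1.71 and 0.57, and 33 of 34 had a smaller difference in the second set by the test. Ribosomal protein genes have many processed pseudogenes, so reads may be split. With unscaled totals 31 were higher, with a median of 0.91.

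Genes of the mitochondrial genome had 5 of 13 lower (38.5%) and 1 higher (7.69%), against 12.5% and 16.4% over all genes. The median was -0.79, and 2 to 4 were lower without 1 first-set OVCAR-3 library. MT-CO3, a subunit of cytochrome c oxidase, was at 157, 178 and 660 CPM with GSK-J4, against 781, 470 and 998 CPM with GSK-J5 in OVCAR-3. Its treated and control libraries overlapped only through replicate 3, and the difference was -1.55 (SE 0.29, adjusted p = 0.00277). MT-ND4 differed by -1.34 (adjusted p = 0.0369) and MT-ND2 by 0.83. The ribosomal RNAs of the same genome went the other way in these libraries, as given above for their share of counts.

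Of 24 cholesterol synthesis genes, 5 were lower (20.8%) and 0 higher, against 12.5% and 16.4% over all genes. Without 1 first-set OVCAR-3 library 2 to 4 were lower. LSS, the cyclase that forms lanosterol, was at 19.3, 14.5 and 48.4 CPM with GSK-J4, against 82.8, 87.8 and 45.7 CPM with GSK-J5 in OVCAR-3, so the compounds were close in replicate 3. It was at 89.8 to 123 against 91.6 to 101 CPM in CAOV3. The difference was -1.74 (SE 0.41, adjusted p = 0.00831). The list's replicate medians were -0.38, -0.61 and 0.35. Of 16 fatty acid genes, 3 were higher (18.8%) and 5 lower (31.2%), with 0 or 3 lower under those omissions. FASN, the fatty acid synthase, was at 217, 256 and 666 CPM with GSK-J4, against 1114, 1086 and 658 CPM with GSK-J5, and differed by -1.53 (SE 0.38, adjusted p = 0.00989). ELOVL6 differed by -1.72 (adjusted p = 0.0453). Of 27 glycolysis and hypoxia genes, 5 were higher (18.5%) and 4 lower (14.8%), near the 16.4% and 12.5% over all genes. Under those omissions 0 were lower. The glucose carrier SLC2A1 was at 664, 777 and 325 CPM against 240, 228 and 203 CPM (difference 1.33, SE 0.20, adjusted p = 0.00119). The glycolysis regulator PFKFB4 differed by -1.52 (adjusted p = 0.0347).

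**Figure D3:**
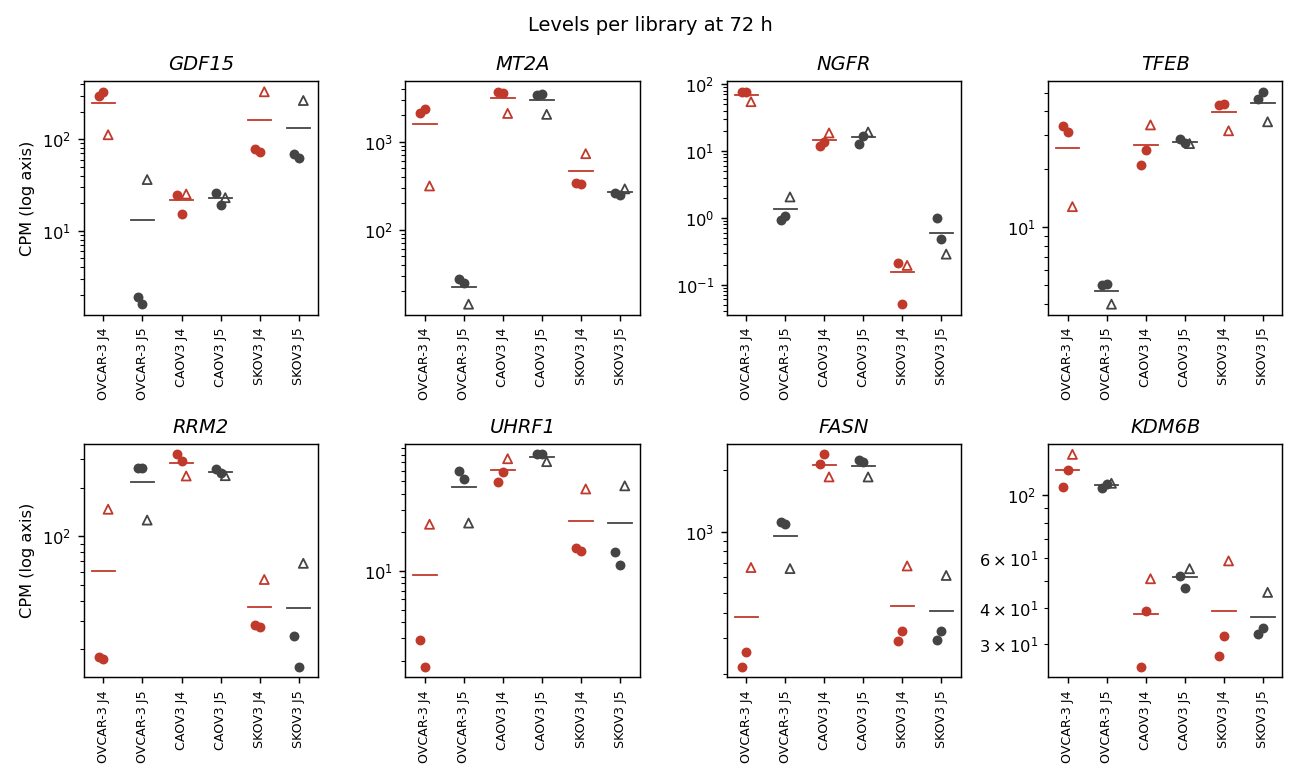
Scaled CPM on a log axis for 8 genes in each library of 72 h; filled circles are replicates 1 and 2, open triangles replicate 3, and the line is the mean, in red for GSK-J4 (J4), which stands left of GSK-J5 (J5) in each line. The circles of OVCAR-3 separate by compound in all panels but KDM6B, and for RRM2, UHRF1 and FASN the triangles do not.

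Of 30 interferon-stimulated genes, 4 were higher (13.3%) and 6 lower (20%), against 16.4% and 12.5% over all genes. Without 1 first-set OVCAR-3 library 0 or 1 was lower. The replicate medians were -0.60, -0.77 and 0.46, and 13 genes had a higher difference in the second set than in the first. OAS1, an antiviral RNA sensor, was at 0.968, 0.474 and 15.4 CPM with GSK-J4, against 14.6, 16.7 and 21.4 CPM with GSK-J5 in OVCAR-3, and differed by -2.22 (adjusted p = 0.0444). RSAD2 differed by 2.91 (adjusted p = 0.00633), but the OVCAR-3 effect of 0.82 was not called, and SKOV3 had 1 count with GSK-J4 against 16 with GSK-J5. Of 15 genes of class I antigen presentation 2 were higher (13.3%, under the 16.4% over all genes). These were the proteasome subunit gene PSMB10 at 1.11 and the peptide carrier gene TAP1 at 0.62. Without 1 first-set OVCAR-3 library 0 or 1 was higher, and with unscaled totals 0 were higher and 2 lower.

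Of 22 epithelial markers, 4 were higher (18.2%) and 5 lower (22.7%), and of 21 mesenchymal markers, 2 were higher (9.52%) and 3 lower (14.3%). Over all genes 16.4% were higher and 12.5% lower. Without 1 first-set OVCAR-3 library, 2 to 4 epithelial and 1 or 2 mesenchymal markers were lower. KRT7, a keratin of simple epithelia, was at 2416, 2724 and 1449 CPM with GSK-J4, against 618, 606 and 1013 CPM with GSK-J5 in OVCAR-3, and differed by 1.51 (SE 0.28, adjusted p = 0.00255). ESRP2, a splicing regulator of epithelial cells, was at 31.0, 24.5 and 122 CPM against 143, 136 and 157 CPM, and differed by -1.58 (SE 0.38, adjusted p = 0.00882). The fibronectin receptor gene ITGA5 differed by -1.54 (adjusted p = 0.00401) and the collagen gene COL1A1 by -1.47 (adjusted p = 0.0343). CD44, a hyaluronan receptor used as a stem cell marker, was at 10.3, 12.8 and 7.76 CPM with GSK-J4, against 1.80, 2.04 and 4.09 CPM with GSK-J5 in OVCAR-3. Its groups did not overlap, and it was at 91.8 to 102 against 89.0 to 108 CPM in CAOV3 and at 413 to 545 against 431 to 558 CPM in SKOV3 (difference 2.00, SE 0.29, adjusted p = 0.00106). ALDH1A1, also used as such a marker, differed by -1.82 (adjusted p = 0.0436), with 23 counts with GSK-J4 against 9 with GSK-J5 in CAOV3.

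Of 20 tested genes of ovarian and Mullerian lineage, 3 were lower (15%, against 12.5% over all genes) and 0 higher, with 1 or 2 lower without 1 first-set OVCAR-3 library. MECOM, an amplified transcription factor gene in many ovarian cancers, was at 5.86, 5.95 and 41.8 CPM with GSK-J4, against 52.3, 54.0 and 56.9 CPM with GSK-J5 in OVCAR-3. It was at 448, 452 and 96.5 against 453, 479 and 111 CPM in SKOV3, and the difference was -2.92 (SE 0.63, adjusted p = 0.00542). In CAOV3 its mean was at most 0.499 CPM under either compound. The fitted CAOV3 effect of 1.49 (SE 0.87, not called) enters the difference. The OVCAR-3 effect of MECOM was -2.23, and its difference against SKOV3 alone was -2.125. SOX17 was at 77.4, 74.5 and 124 CPM with GSK-J4, against 283, 244 and 123 CPM with GSK-J5, and differed by -1.27 (adjusted p = 0.0112). The folate receptor gene FOLR1 differed by -1.24. As a check of the labels, PAX8, a Mullerian lineage factor, was at 550 to 642 CPM in OVCAR-3, 32.5 to 50.9 CPM in CAOV3 and 152 to 208 CPM in SKOV3. EPCAM, an epithelial adhesion protein, was at 286 to 464 CPM in OVCAR-3 and 448 to 497 CPM in CAOV3, but at 3.38 to 19.8 CPM in SKOV3.

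Of 26 genes of ERK feedback and the immediate early response, 9 were higher (34.6%) and 3 lower (11.5%), against 16.4% and 12.5% over all genes. Without 1 first-set OVCAR-3 library 5 to 7 were higher. DUSP4, a phosphatase that restrains ERK, was at 21.9, 22.6 and 6.25 CPM with GSK-J4, against 2.53, 2.91 and 2.47 CPM with GSK-J5 in OVCAR-3, and differed by 2.42 (SE 0.30, adjusted p = 0.000588). DUSP1 differed by 2.26 (adjusted p = 0.00119) and MYC by 1.72. Of 23 TGF-beta and YAP targets, 6 were higher (26.1%) and 4 lower (17.4%), with 0 or 1 lower under those omissions. PMEPA1, a feedback inhibitor of TGF-beta signalling, was at 75.0, 94.8 and 30.0 CPM against 16.3, 14.6 and 15.9 CPM, and differed by 2.09 (SE 0.29, adjusted p = 0.000886), and the matrix protein gene CCN1 differed by 1.85 (adjusted p = 0.00499).

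Of 14 leukocyte markers 4 were tested and none was called. Of 8 tested endothelial markers 1 was called: CLDN5, a tight junction gene, had 0 counts in all GSK-J4 libraries of OVCAR-3, against 30 counts with GSK-J5 in replicates 1 and 2 and 0 in replicate 3. Of 9 tested fibroblast markers COL1A1 alone was called. Without 1 first-set GSK-J4 library of OVCAR-3, 0 genes of these 3 marker lists were called.

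Beyond the lists, the largest upward differences among genes averaging at least 1 log2 CPM, with the same sign in every replicate, included NGFR. This receptor gene for neurotrophins lies on chromosome 17 (49495293 to 49515017). It was at 77.1, 76.0 and 54.6 CPM with GSK-J4, against 0.936, 1.05 and 2.05 CPM with GSK-J5 in OVCAR-3. The groups did not overlap, and the difference was smaller in the second set (set difference -2.57, adjusted p = 0.0218). In CAOV3 it was at 12.0 to 18.6 against 12.6 to 19.2 CPM, and in SKOV3 it was low, with 14 counts over the GSK-J4 libraries against 53 over those of GSK-J5, which enters the difference. The difference was 6.78 (SE 0.48, interval 5.74 to 7.81, adjusted p = 6.64e-06). RNF165, a ubiquitin ligase gene of neurons, was at 16.8, 19.9 and 5.03 CPM with GSK-J4, against 0.416, 0.210 and 1.06 CPM with GSK-J5, and differed by 4.70 (SE 0.61, adjusted p = 0.000672). STK32A, a kinase gene, was at 4.79, 4.47 and 1.41 CPM against 0.0693, 0.140 and 0 CPM, a total of 219 against 6 counts. MOV10L1, an RNA helicase gene of the germ line, was at 10.8, 9.16 and 3.42 CPM with GSK-J4, against 0.416, 0.316 and 1.45 CPM with GSK-J5 in OVCAR-3, and at 0 against 0.199 CPM in CAOV3 (means). SLC43A3, HOXB-AS3, MSR1 and LSAMP also met the rule, but their totals over the OVCAR-3 libraries were low, at 28, 16, 33 and 6 counts for GSK-J4 and 0, 1, 8 and 0 counts for GSK-J5. They passed the level filter through CAOV3 or SKOV3.

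The largest downward differences held fewer well-measured genes. CRB2, a cell polarity gene, was at 0.161, 0.158 and 1.92 CPM with GSK-J4, against 17.6, 15.9 and 4.80 CPM with GSK-J5 in OVCAR-3, and differed by -5.40 (SE 1.35, adjusted p = 0.0104). Its GSK-J4 replicates 1 and 2 lay near the floor of 3 counts, which enters the fitted size. METTL7A, a methyltransferase gene of lipid droplets, was at 1.45, 1.95 and 17 CPM against 28.6, 31.6 and 16.6 CPM. Its SKOV3 counts were 91 with GSK-J4, against 14 with GSK-J5, which enters the difference of -4.04 (SE 0.86, adjusted p = 0.00499). TTC30A, a gene of transport within cilia, was at 0.861, 0.368 and 15.4 CPM with GSK-J4, against 23.5, 28.3 and 16.4 CPM with GSK-J5, and differed by -3.49 (SE 0.93, adjusted p = 0.0136). FCHO2-DT, a transcript that starts beside FCHO2, was at 0.215, 0.105 and 8.79 CPM against 11, 10.3 and 18 CPM, with GSK-J4 replicates 1 and 2 again near the floor. TNFAIP8L3, PCDHA7 and MIRLET7IHG had 2, 3 and 6 counts over the OVCAR-3 libraries of GSK-J4, against 52, 35 and 84 counts over those of GSK-J5.

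In 5 of the 12 lowest genes a group of another line was at 0, and the fitted size rests on that. ADAM12 had 27 counts with GSK-J4 in CAOV3, against 0 with GSK-J5, and its OVCAR-3 effect of -0.57 was not called. TENM1 had 9 counts against 0 in CAOV3, and its OVCAR-3 effect was not called either. MAMDC2, EPN3 and TNRC6C-AS1 had 5, 8 and 7 counts with GSK-J4 in SKOV3, against 0 with GSK-J5. These last 3 were themselves called lower in OVCAR-3, with effects of -1.95, -1.69 and -1.68. EPN3, an endocytic adaptor gene, was at 18.2, 17.1 and 65.3 CPM with GSK-J4, against 96.7, 87.0 and 79.4 CPM with GSK-J5. Over all called genes, 182 had a fitted effect in CAOV3 or SKOV3 larger than in OVCAR-3.

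**Figure D4:**
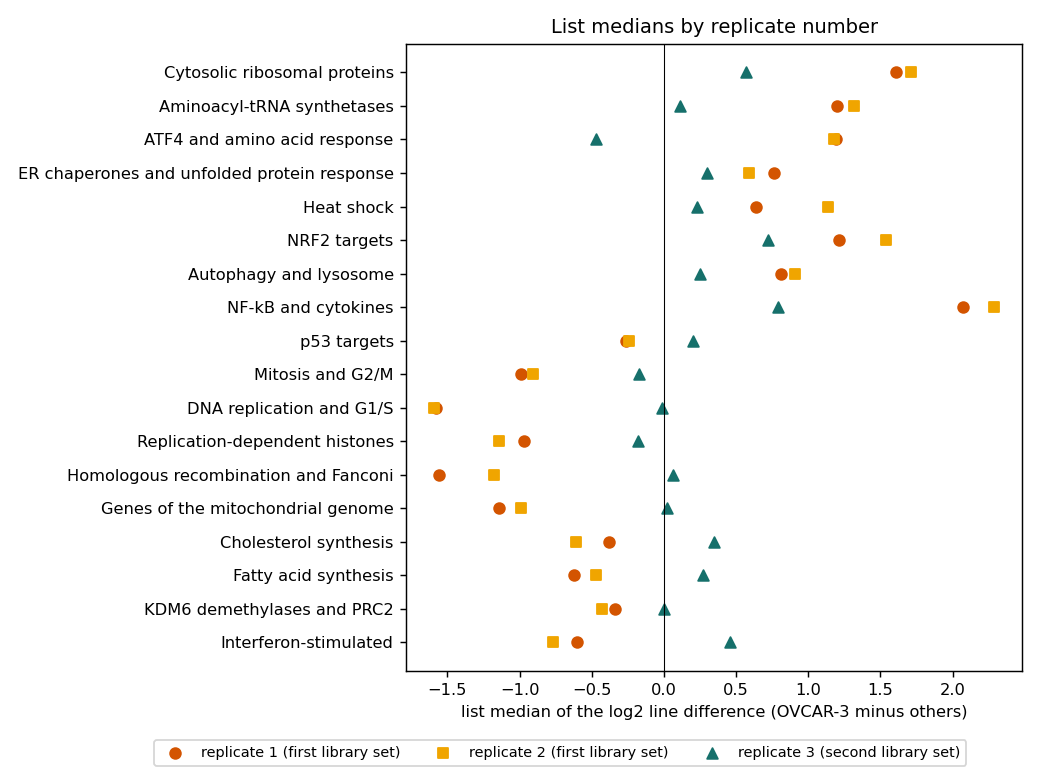
List medians of the log2 line difference, computed separately for replicate 1 (circles), replicate 2 (squares) and replicate 3 (triangles). Triangles lie nearer 0 than circles and squares for every list shown, and on the other side of 0 for the ATF4 (-0.47), interferon (0.46), cholesterol (0.35), fatty acid (0.27), p53 (0.20), homologous recombination (0.06) and mitochondrial genome (0.02) lists.

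The dependence on the library set was tested directly, as the line difference in the second set minus that in the first. It was called for 4978 of 19274 genes (25.8%), 3011 with a higher and 1967 with a lower value in the second set. Within lines, the GSK-J4 effect differed between sets for 6715 genes in OVCAR-3 (34.8%), for 19 in CAOV3 (0.0986%) and for 0 in SKOV3 by edgeR, where 480 had an unadjusted p below 0.05. The second set has 1 library per compound in each line, so this test takes its spread from the first set. The 5 genes with the lowest difference on replicates 1 and 2, SMIM10, HTR7P1, MAGEH1, FAM167B and LINC01560, had 0 counts in the GSK-J4 libraries 1 and 2 of OVCAR-3 and 10 to 96 counts in replicate 3. With GSK-J5 they had 25 to 239 counts over the 3 libraries.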

How the data were processed

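The authors deposited gene counts per library in 3 tables, 1 per line; per the submitters' processing notes, STAR, DESeq2 and GRCh38 were used, while the sources used here do not give the counting tool, strand setting or annotation. Genes without strand information can share reads with an overlapping antisense partner. Each line's replicate 3 column was matched by its header; the OVCAR-3 GSK-J4 header reads 73 and was taken as 72 h, replicate 3. No pair of replicates agreed within sampling noise: the lowest chi-square per gene was 10.79.

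All 18 libraries of 72 h were fitted together in edgeR 4.0.16 (R 4.3.3; filterByExpr with a minimum count of 10, trimmed-mean (TMM) scaling, robust quasi-likelihood F test), with line by compound groups and a set term nested in line. Benjamini-Hochberg adjustment ran over every tested gene, with calls below 0.05. Levels at 72 h are TMM-scaled CPM, and those at 48 h are CPM of total counts. SE is the size of the estimate over the square root of F, and intervals are 95%. Replicate values are differences of log2 CPM with a prior count of 2. Alternatives used limma 3.58.1 and DESeq2 1.42.0. The steps were tested on simulated data. Of 58825 gene IDs, 58472 took names from the gene name table and 345 from GENCODE 29. Promoters are RefSeq windows of GRCh38.p14, and every motif was searched on both strands.

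The members and the 32 gene lists were chosen with earlier results of these data known. Named genes were KDM6A and KDM6B; the 12 highest and 12 lowest called genes averaging at least 1 log2 CPM, with a symbol lacking a period and the same sign in each replicate; 2 called genes per list with the largest difference; 5 each way on replicates 1 and 2; and 4 for the set difference. Other list members named were chosen after their values were seen. A few members are counted in their lists but not reported here by name. Same-numbered GSK-J4 and GSK-J5 libraries correlated above 0.1 in every pair in SKOV3 alone, so the numbers were not taken as pairs. Floors cover counting error only.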

Additional observations from a re-analysis of the deposited data

Results flagged for a closer look

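The GSK-J4 effect differed between lines by the test of the difference itself: 5567 genes for OVCAR-3 against the mean of the other lines, 4030 against CAOV3 and 4351 against SKOV3. These comparisons share the OVCAR-3 libraries.

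The line difference also differed between library sets, for 4978 genes. The 4 genes with the largest fitted set difference rest on zeros. FAM167B (adjusted p = 0.001432 by edgeR) was at 0, 0 and 0.314 CPM with GSK-J4 in OVCAR-3, against 0.693, 0.175 and 0 CPM with GSK-J5. ZNF488 (adjusted p = 0.0004028) was at 0, 0 and 0.597 CPM, against 1.21, 1.51 and 0 CPM. C2CD4C (adjusted p = 0.0001918) was at 0, 0 and 0.408 CPM, against 0.901, 0.737 and 0 CPM. MIR100HG (adjusted p = 0.005024) was at 0, 0 and 0.502 CPM, against 0.347, 0.140 and 0 CPM. Their fitted sizes are not given for that reason.

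The OVCAR-3 libraries of 48 h, 2 with GSK-J4 and 2 with GSK-J5, entered no comparison above. Their levels are CPM of total counts without trimmed-mean scaling, so they are not on the scale of the 72 h levels. In these 48 h libraries 8 of the 12 highest genes had both GSK-J4 libraries above both GSK-J5 libraries, and 12 of the 12 lowest had both below. How many of all genes met the same criterion was not counted, so these numbers have no background share. NGFR was at 76.0 and 67.4 CPM with GSK-J4, against 1.17 and 1.20 CPM with GSK-J5, GDF15 at 235 and 270 CPM against 1.21 and 0.879 CPM, and MT2A at 1160 and 1140 CPM against 39.6 and 33.5 CPM. The exceptions were SLC43A3, HOXB-AS3, MSR1 and LSAMP, which were under 0.5 CPM in each of these libraries. PCDHA7 (0 and 0 CPM with GSK-J4 against 0.113 and 0.13 CPM) and ADAM12 (0.131 and 0.317 against 0.414 and 0.423 CPM) were also under 0.5 CPM throughout. They are counted among the 12 lowest genes. KDM6B was at 143 and 180 CPM with GSK-J4, against 94.2 and 107 CPM with GSK-J5. CAOV3 and SKOV3 have no libraries of 48 h here, so these values bear on OVCAR-3 alone and the difference between lines was not tested at that time.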

How the results depend on the processing

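Counts are given as higher, lower, against CAOV3 and against SKOV3. With unscaled totals they were 1594 and 4334 for higher and lower. With no set term they were 1479, 335, 681 and 798, and with a set term shared by the lines 1830, 701, 1059 and 1096. A replicate block within line gave 2246, 1114, 1217 and 1079; the numbers are not shown to pair the libraries. Against a fold threshold of log2 1 they were 59, 2, 46 and 16, and the set difference gave 1386. Limma voom gave 1551 lower genes. With no set term the lower members numbered 3 of 39 for DNA replication, 1 of 32 for homologous recombination, 6 of 31 for mitosis and 0 of 13 for KDM6 and PRC2, and the higher ones 10 of 20 for tRNA synthetases, 12 of 23 for NRF2 targets and 30 of 34 for ribosomal proteins. The replicate block gave 14, 5, 15, 1, 11, 20 and 31 for the same lists, and limma voom 19, 5, 19, 3, 17, 20 and 31. Leaving out single libraries or replicate numbers gave 0 to 4324 higher, 0 to 4734 lower, 0 to 8587 against CAOV3 and 0 to 8744 against SKOV3. Without replicate 1 or 2 of every line edgeR called 0 genes higher or lower, with 2224 and 2206 at an unadjusted p below 0.05. Without replicate 1 it called 0 against CAOV3 and 0 against SKOV3 (unadjusted 1595 and 1454), and without replicate 2 it called 1 and 0 (unadjusted 1552 and 1553). In turn, without replicate 3 of every line the counts were 4238, 4552, 8219 and 8327. Chosen after the data were seen, leaving out both OVCAR-3 libraries of the second set gave 4325, 4733, 8585 and 8744, and leaving out both of SKOV3 gave 1882 against SKOV3. KDM6A turned to -0.257 with unscaled totals, -0.029 without OVCAR-3 GSK-J4 replicate 3, -0.028 without GSK-J5 replicate 3 and -0.029 without both, within a range of -0.029 to 0.285 over left-out libraries or replicate numbers. The cause of these shifts was not tested. Over 85 single genes and 33 alternatives, 2115 of 2697 values kept their call, 578 lost it and 4 reversed. The set difference could not be fitted without replicate 1 or 2, for lack of residual degrees of freedom. Leaving out 1 library assumes that a lone library varies like the rest. Total counts set the floor at 0.079 to 0.125 CPM before scaling factors are applied.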
